A study of Mus musculus with 8 samples.

Results

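The 10 Krueppel-like factor genes Klf2, Klf3, Klf4, Klf6, Klf9, Klf10, Klf11, Klf12, Klf13 and Klf15 were examined for binding of the glucocorticoid receptor (GR) and of FOXO1 in mouse liver. They were taken by name from 21938 protein-coding genes, with earlier results of these data known. The word family below stands for these 10 genes only. Chromatin immunoprecipitation followed by sequencing (ChIP-seq) yields peaks, stretches of DNA enriched with the antibody. Overlapping GR peaks from the 6 lists were joined, which gave 51428 sites. A site was assigned to a gene when its centre lay within 50 kb of the gene start, which left 87 sites. A site is named by its gene and the signed distance of its centre from the gene start in the direction of transcription.

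Krueppel-like factors are zinc-finger transcription factors that recognise GC-rich boxes with the same DNA-binding domain as the Sp factors. They differ in the partners they recruit: some bind activating cofactors, some the corepressor CtBP and some the corepressor Sin3. The GR is a nuclear receptor that enters the nucleus with bound hormone and binds palindromic response elements. Klf9 and Klf15 are long-known targets of the hormone in many tissues, and in liver Klf15 takes part in the control of amino acid breakdown and gluconeogenesis. FOXO1 is a forkhead factor kept out of the nucleus by insulin signalling and active in liver during fasting.

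Each of 3 groups had 2 GR libraries, all from whole liver of adult male C57BL/6J mice without a transgene or deletion, collected when the lights went off. The ctrl. mice ate freely until the last week, when food was given only at night. The cal. res. mice received a gradually reduced ration at lights-off. The CORT mice had food only at night during the treatment and received corticosterone, the main rodent glucocorticoid, by daily intraperitoneal injection. No vehicle-injected group was analysed here. The methods start all mice at the same age but describe a shorter course for CORT, with handling before the injections. The reporting summary gives a single age range for the study. Age at collection and handling may thus differ between CORT and ctrl., and could not be told apart from the treatment. The FOXO1 list came from 2 merged cal. res. libraries and has no replicates. Whole liver holds hepatocytes and other cells, and more bound cells cannot be told apart from more binding per cell. Peak lists hold no transcript levels, so neither the tissue label nor the expression of these genes could be checked.

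The lists differed in length, from 12456 distinct regions in ctrl. 2 to 39133 in CORT 2, with 36231 in ctrl. 1, 22704 and 18744 in cal. res. and 29470 in CORT 1. The 2 ctrl. lists thus differed more in length than the 2 lists of cal. res. or of CORT did. Library names followed 2 styles: ctrl. 2 shared one with both cal. res. libraries, and ctrl. 1 the other with both CORT libraries. The styles are not explained in the sources used here. A peak was ranked within its own list by fold enrichment, the ratio of reads at the summit to the local background, and its rank was turned into a percentile in which 100 is the strongest. Read depth is unknown, since the files hold no read totals.

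The 10 genes were unequally supplied with GR sites. Klf15 had 23 sites, a number that 99.5% of protein-coding genes did not exceed. Klf13 had 12, Klf11 11, Klf9 and Klf12 9 each, Klf3 7, Klf10 6, Klf2 4, and Klf4 and Klf6 3 each, against a median of 3 over all protein-coding genes. These windows also hold other genes: for 54 of the 87 sites the member was the nearest protein-coding start. At Klf15 this held for 5 of 23 sites, since Cfap100 lies upstream and Aldh1l1 downstream, and at Klf13 for 2 of 12, where the start of E030018B13Rik lies within Klf13.

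**Figure D1:**
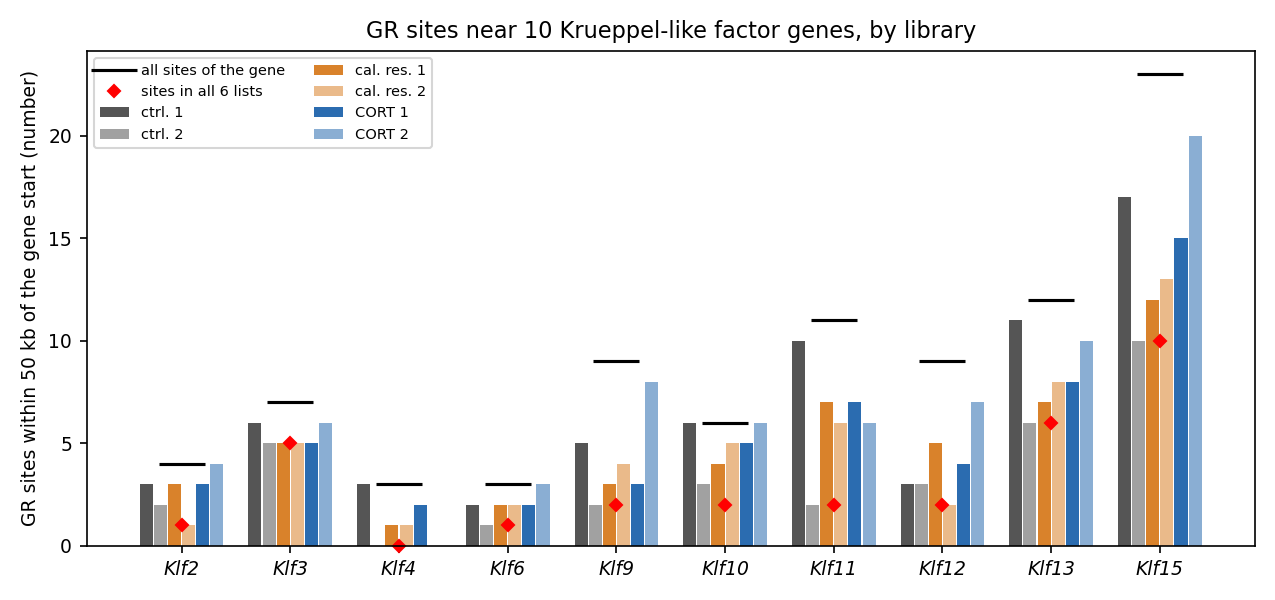
The bars count the GR sites with a peak in each library within 50 kb of each gene start, the black dashes all sites of the gene and the red diamonds the sites found in all 6 lists. Klf15 led in every library with 10 to 20 sites, and ctrl. 2 and CORT 2, the shortest and the longest list, held none at Klf4.

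A site counted as held by a group where the lists of both replicates had a peak in it. All 3 groups held 31 of the 87 sites, or 35.6%, where the share over all sites was 15.7%. Of these, 10 lay at Klf15, 6 at Klf13, 5 at Klf3, 2 each at Klf9, Klf10, Klf11 and Klf12, 1 each at Klf2 and Klf6, and 0 at Klf4. Such a site stood near 9 of the 10 genes, where 37.9% of protein-coding genes had one. The genes were chosen with earlier results of these data known, so contrasts with all genes or sites carry no independent weight. Another 24 sites were found in a single list, and the median of their percentiles was 21.3, whereas the 31 common sites had a median highest percentile of 97.6. Altogether 11 of the 87 sites, or 12.6%, ranked in the upper 10% of all 6 lists, where the share over all sites was 1.38%. The common sites of the family were also longer, with a median width of 1861 bp against 1139 bp over all 8095 common sites, and the part of width in these shares was not tested.

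Every one of the 10 gene starts lay inside a GR site of at least 1 list, where 41.5% of protein-coding gene starts did. In 8 of 10 the site over the start had a peak in all 6 lists, where the share over protein-coding genes was 12.8%. The exceptions were Klf2, whose start had a peak in 5 lists and none in cal. res. 2, and Klf4, with a peak in 4 lists.

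**Figure D2:**
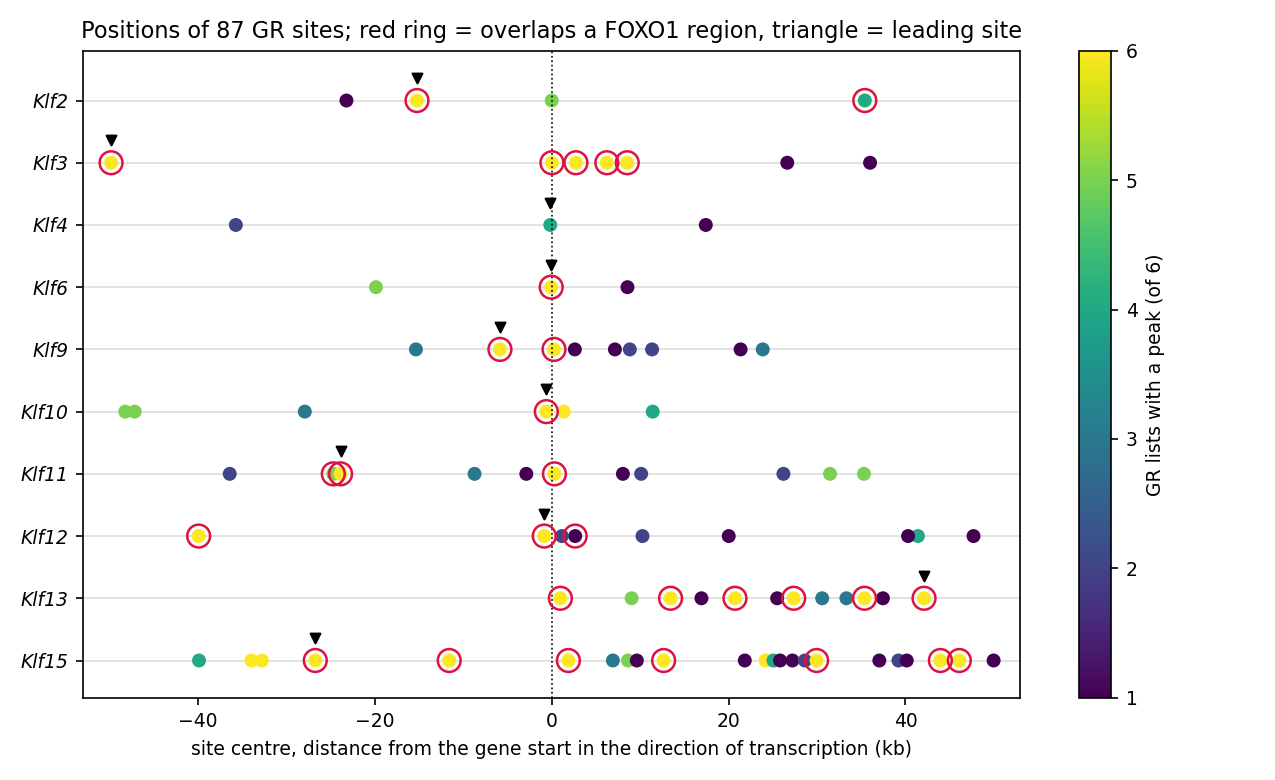
Each point is a GR site, placed by the distance of its centre from the gene start in kb and coloured by the number of the 6 GR lists with a peak. Red rings mark sites that overlap a FOXO1 region and triangles the leading site of each gene, which stood at the start of Klf4, Klf6, Klf10 and Klf12 and up to 49.8 kb from it at the others.

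For each gene the leading site was the one with the highest mean percentile over the 6 lists, a list without a peak counting as 0. The 100 bp around the GR summits of 5 leading sites are printed here, those of Klf13, Klf9 and Klf15 because they ranked highest and those of Klf2 and Klf6 because they, like Klf15, hold a forkhead (FOX) match. The sixth stretch, Klf15 +46.1 kb, was chosen after its values were seen, as the only stretch read that holds a full GR element. All are on the plus strand of GRCm38 (mm10), 5′ to 3′, and capitals mark a FOX match (TGTTTNC) in Klf15 -26.7 kb, Klf2 and Klf6, and the GR element with an overlapping AGAACA hexamer, read on the other strand, in Klf15 +46.1 kb.
Klf13 +42.1 kb, chr7:63896995-63897094: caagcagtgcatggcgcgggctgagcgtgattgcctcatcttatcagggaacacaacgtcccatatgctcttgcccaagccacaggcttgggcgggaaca
Klf9 -5.9 kb, chr19:23135883-23135982: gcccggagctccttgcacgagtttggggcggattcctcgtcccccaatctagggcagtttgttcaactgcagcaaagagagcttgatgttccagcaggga
Klf15 -26.7 kb, chr6:90435502-90435601: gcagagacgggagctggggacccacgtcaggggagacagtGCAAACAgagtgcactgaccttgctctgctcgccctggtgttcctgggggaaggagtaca
Klf15 +46.1 kb, chr6:90509238-90509337: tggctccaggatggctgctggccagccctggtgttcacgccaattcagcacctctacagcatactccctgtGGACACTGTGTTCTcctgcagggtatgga
Klf2 -15.2 kb, chr8:72303727-72303826: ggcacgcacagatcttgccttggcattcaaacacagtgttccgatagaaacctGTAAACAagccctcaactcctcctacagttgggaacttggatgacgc
Klf6 -0.1 kb, chr13:5861498-5861597: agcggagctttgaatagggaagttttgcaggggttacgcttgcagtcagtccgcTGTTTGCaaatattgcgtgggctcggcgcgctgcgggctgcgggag

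Klf9 and Klf13, 2 close relatives that recruit Sin3, had the leading sites with the highest mean percentiles. Over the gene starts, Klf15 +1.9 kb had a higher mean percentile (99.1) than Klf13 +1.0 kb (96.3) and Klf9 +0.3 kb (90.8). Klf13 +42.1 kb (chr7:63894629-63898994) ranked 3rd in ctrl. 1, 4th in ctrl. 2, 3rd in both cal. res. libraries, 1st in CORT 1 and 2nd in CORT 2. It was among the 4 strongest regions of every list, and the 6 summits fell within 19 bp of each other. The site is 4366 bp wide and lies inside the Klf13 gene. Its summit lies within 1 kb of an annotated start of the non-coding gene Gm27252, so the site's assignment to Klf13 rests on distance alone. Its fold enrichment was 164 and 77.3 (ctrl.), 198 and 153 (cal. res.) and 159 and 253 (CORT), each on the scale of its own list.

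Klf13 had 5 more sites in all 6 lists, spread over the gene. Klf13 +27.4 kb, in an intron, had percentiles of 99.7 and 94.9 (ctrl.), 98.6 and 97.9 (cal. res.) and 99.6 and 99.8 (CORT). The site over the gene start, Klf13 +1.0 kb, had 99.2 and 95.3 (ctrl.), 93.9 and 92.4 (cal. res.) and 99.8 and 97.0 (CORT). Both cal. res. values at the start lay below both ctrl. values, with a difference of -4.11 ± 1.98 points between the group means (limma SE; adjusted p = 0.80), while CORT overlapped ctrl. At Klf13 +13.4 kb the spread within ctrl. exceeded most differences between groups, with 93.8 and 31.6 (ctrl.), 63.3 and 66.8 (cal. res.) and 94.7 and 95.7 (CORT).

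Klf9 -5.9 kb (chr19:23133592-23137151), upstream of the gene and outside any annotated gene, ranked 34th and 54th (ctrl.), 38th and 50th (cal. res.) and 24th and 87th (CORT). The groups overlapped, and the 6 summits lay within 23 bp. The site over the Klf9 start, Klf9 +0.3 kb, had percentiles of 98.1 and 82.2 (ctrl.), 88.0 and 83.9 (cal. res.) and 99.3 and 93.1 (CORT), with all groups overlapping ctrl. The other 7 Klf9 sites were absent from at least 3 of the 6 lists, and none of their percentiles exceeded 54.8.

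Klf10 and Klf11, both induced by TGF-beta in other tissues and partners of Sin3, were bound at their starts. Klf10 -0.6 kb (chr15:38300101-38302533), over the start, had percentiles of 96.0 and 93.6 (ctrl.), 92.5 and 88.7 (cal. res.) and 98.8 and 98.0 (CORT). Both cal. res. values lay below and both CORT values above the ctrl. values, with differences of -4.22 ± 2.32 and 3.58 ± 2.32 points (limma SE; adjusted p = 0.80 and 0.77). Among the common sites alone CORT, with 96.0 and 90.6, overlapped ctrl., with 83.1 and 90.7, and cal. res., with 80.7 and 76.5, stayed below. At Klf10 +1.4 kb the percentiles were 97.2 and 94.2 (ctrl.), 77.8 and 79.7 (cal. res.) and 96.3 and 76.7 (CORT). The cal. res. values lay below ctrl. without overlap, with a difference of -16.9 ± 7.88 points (limma SE; adjusted p = 0.79), and one CORT value lay within the range of ctrl. and the other below it.

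Klf11 -23.9 kb (chr12:24627030-24627762) was the leading Klf11 site, with percentiles of 90.3 and 17.5 (ctrl.), 90.7 and 87.5 (cal. res.) and 83.4 and 81.2 (CORT). Only ctrl. 2 was low. Klf11 +0.3 kb, over the start, had 61.1 and 50.5 (ctrl.), 47.6 and 38.9 (cal. res.) and 86.5 and 44.6 (CORT), in the middle of the lists.

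Klf3 and Klf12, which recruit CtBP, had common sites around their starts. At Klf3, 4 of the 5 common sites lay between the start and +8.5 kb. The site over the start, Klf3 +0.0 kb, had percentiles of 99.0 and 97.5 (ctrl.), 95.8 and 95.6 (cal. res.) and 99.5 and 92.0 (CORT), with both cal. res. values below ctrl. at a difference of -2.54 ± 2.37 points (limma SE; adjusted p = 0.83). Klf3 -49.8 kb (chr5:64752974-64754146), in an intron of the non-coding gene Gm20033, led with 99.5 and 96.4 (ctrl.), 98.9 and 98.8 (cal. res.) and 99.1 and 98.9 (CORT). It lies close to the edge of the window.

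Klf12 -0.8 kb (chr14:100284363-100286683), over the Klf12 start, had percentiles of 93.9 and 90.7 (ctrl.), 93.7 and 92.4 (cal. res.) and 98.8 and 96.9 (CORT). Both CORT values lay above ctrl., by 5.58 ± 2.31 points (limma SE; adjusted p = 0.77), and cal. res. overlapped ctrl. Among the common sites alone CORT, with 95.9 and 86.0, overlapped ctrl., with 74.96 and 86.5. Klf12 -39.9 kb had 94.6 and 36.3 in ctrl. with the other 4 libraries between 76.0 and 83.2.

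Klf2, Klf4 and Klf6, activating factors known from endothelial, epithelial and stellate cells among others, had few sites. Klf2 -15.2 kb (chr8:72303476-72304126) had percentiles of 49.9 and 53.1 (ctrl.), 77.2 and 72.0 (cal. res.) and 73.9 and 66.6 (CORT). Both treated groups lay above ctrl. without overlap, by 23.0 ± 15.7 points in cal. res. and 18.8 ± 15.7 in CORT (limma SE; adjusted p = 0.81 and 0.77). It is intergenic and nearest to the start of Gm10282. Ranked only among the 8095 common sites, so that list length did not enter the rank, the percentiles were 6.86 and 41.5 (ctrl.), 51.3 and 50.5 (cal. res.) and 35.8 and 15.0 (CORT), where CORT overlapped ctrl.

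Klf6 -0.1 kb (chr13:5860958-5861891), over the Klf6 start, had percentiles of 61.6 and 32.0 (ctrl.), 73.0 and 29.7 (cal. res.) and 91.8 and 90.3 (CORT). Both CORT values lay above ctrl., by 44.3 ± 19.98 points (limma SE; adjusted p = 0.77), and cal. res. spread beyond ctrl. on both sides. Both CORT values also lay above ctrl. among the common sites, with 13.4 and 22.0 (ctrl.), 45.2 and 13.4 (cal. res.) and 74.2 and 60.1 (CORT). Klf4 had no site in all 6 lists. Klf4 -0.2 kb (chr4:55532240-55533012), over its start, had percentiles of 55.9 in ctrl. 1, 45.7 and 46.7 in cal. res. and 3.6 in CORT 1, with no peak in ctrl. 2 or CORT 2.

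**Figure D3:**
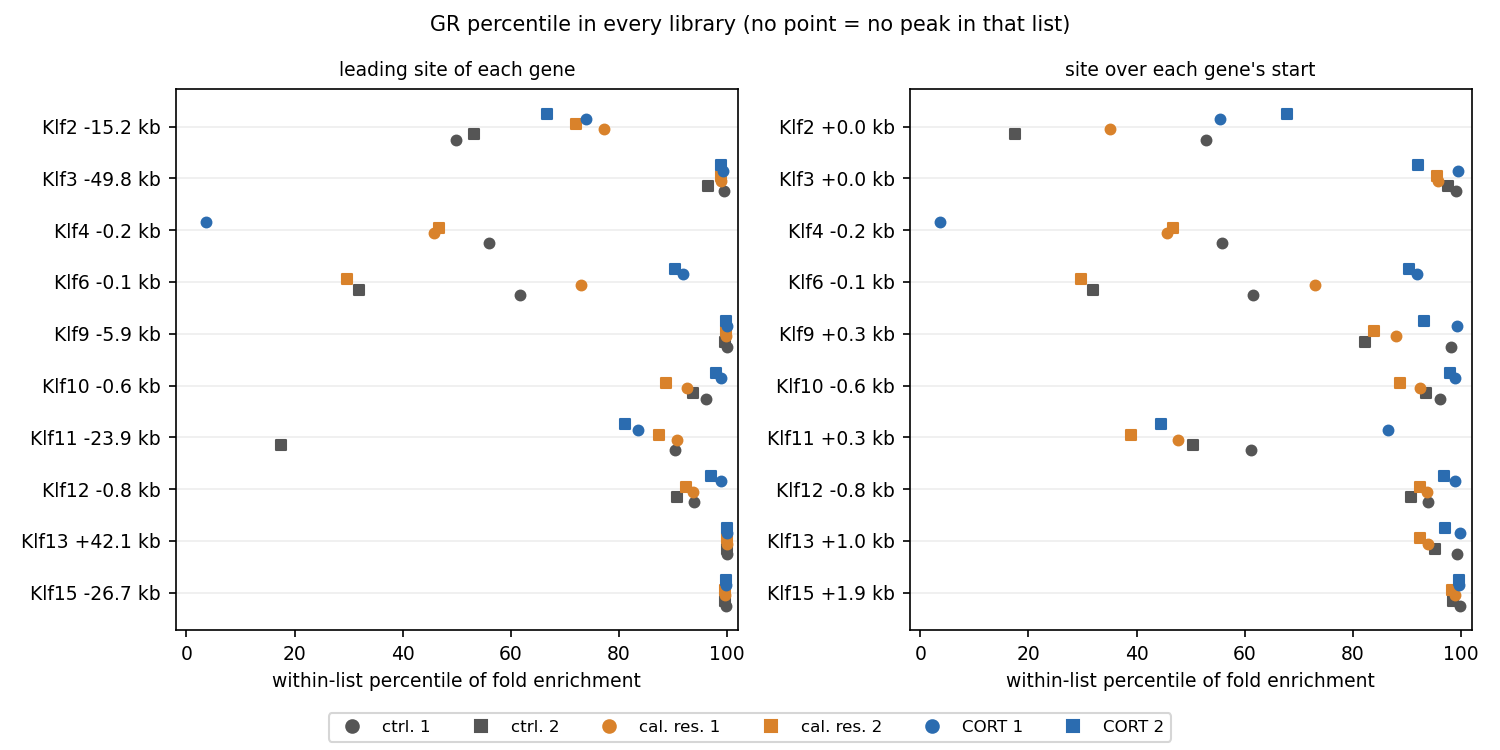
The points give the within-list percentile of fold enrichment in each of the 6 libraries at the leading site of each gene and at the site over each gene start, with colour for the group and a circle or square for replicate 1 or 2. Values at Klf3, Klf9, Klf10, Klf12, Klf13 and Klf15 crowd above 80. Klf6 -0.1 kb reaches 90 only in CORT, and a single ctrl. value at Klf11 -23.9 kb stands at 17.5.

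Klf15, outside these cofactor groups, had 10 sites in all 6 lists over a stretch that runs from Cfap100 into Aldh1l1. Klf15 -26.7 kb (chr6:90434575-90437111), intergenic and nearest to the start of Cfap100, ranked 65th and 55th (ctrl.), 101st and 72nd (cal. res.) and 79th and 124th (CORT). Klf15 +1.9 kb (chr6:90460965-90467955), 6991 bp wide and over the gene start, ranked 107th and 176th (ctrl.), 245th and 305th (cal. res.) and 140th and 121st (CORT). Klf15 +46.1 kb (chr6:90507673-90509667), in an intron of Aldh1l1, ranked 286th and 195th (ctrl.), 204th and 104th (cal. res.) and 648th and 197th (CORT). At these 3 sites the percentiles of both treated groups overlapped those of ctrl.

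Klf15 -11.6 kb (chr6:90450277-90451696), between the leading site and the gene, had the lowest unadjusted p of the family in both comparisons. Its percentiles were 84.4 and 79.8 (ctrl.), 94.8 and 92.4 (cal. res.) and 99.0 and 93.8 (CORT). Both treated groups lay above ctrl., by 11.5 ± 4.13 points in cal. res. and 14.3 ± 4.13 in CORT (limma SE). Neither passed adjustment over the 8095 common sites (limma adjusted p = 0.77 in both). Among the common sites alone the values were 46.7 and 71.9 (ctrl.), 86.2 and 83.8 (cal. res.) and 96.7 and 73.1 (CORT), again without overlap. Within the name styles cal. res. was 13.8 points above ctrl. 2 and CORT 12.0 points above ctrl. 1.

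At 3 further Klf15 sites both CORT values lay above ctrl. Klf15 -34.0 kb has its summit within 1 kb of an annotated start of Cfap100. Its percentiles were 22.5 and 21.7 (ctrl.), 26.9 and 40.6 (cal. res.) and 54.3 and 85.4 (CORT) (47.7 ± 18.2 points between CORT and ctrl., limma SE, adjusted p = 0.77). At Klf15 -32.8 kb, next to it, CORT had 84.0 and 62.6, ctrl. 49.9 and 24.1 and cal. res. 23.6 and 5.0, so that cal. res. lay below and CORT above ctrl. At Klf15 +24.2 kb both treated groups lay above ctrl., with 67.6 and 42.4 (ctrl.), 84.3 and 73.5 (cal. res.) and 73.7 and 73.0 (CORT). Ranked among the common sites, CORT overlapped ctrl. at all 3, with 13.6 and 45.2 in CORT against 1.25 and 14.3 in ctrl. at -34.0 kb, 54.3 and 11.4 against 6.86 and 16.05 at -32.8 kb, and 35.3 and 21.8 against 18.5 and 31.1 at +24.2 kb. At -32.8 kb the cal. res. values, 6.94 and 1.40, then overlapped ctrl. too, while at +24.2 kb, with 63.4 and 52.5, they stayed above it.

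To ask whether binding at the 31 common family sites differed between groups, the percentiles of all 8095 common sites were compared with limma, a linear model with moderated variances, two-sided and adjusted by Benjamini-Hochberg. No family site had an adjusted p under 0.05 in cal. res. or in CORT against ctrl., and the share called over all sites was 0% in both. At an unadjusted p under 0.05 there were 1 family site in cal. res. and 3 in CORT, among 518 and 317 sites in all. In simulated data of this size, with sites drawn at random, the fit called 30% of sites shifted by 60 points and 12% of those shifted by 20. A moderate shift at a common site taken at random would thus mostly be missed. These rates do not apply to sites near the top of the lists, such as Klf13 +42.1 kb with a limma SE of 0.82 points. There the estimated spread was small, and percentiles cannot rise above 100. With the name style as a term, the cal. res. comparison rests on ctrl. 2 alone. That fit called 7 of the 31 family sites (22.6%) higher in cal. res., where it called 13.3% of all sites, and 0 lower, where it called 0.482%. In CORT it called 0 family sites and 0% of all sites. Those higher in cal. res. were Klf3 +6.2 kb, Klf11 -23.9 kb, Klf12 -39.9 kb, Klf13 +27.4 kb, and Klf15 -11.6 kb, +12.7 kb and +44.0 kb. Their differences ran from 3.37 to 71.6 points. At each of these sites ctrl. 2 was the lowest of the 6 libraries. Each ctrl. library was fitted exactly, so the error came from the cal. res. and CORT replicates and left out the spread within ctrl. Over all common sites the median gap between replicates was 20.5 points in ctrl., 7.19 in cal. res. and 7.82 in CORT. Without ctrl. 1 and with no such term, limma called 6 of 32 family sites in cal. res. and 11 of 32 in CORT, among 1099 and 1836 of 8151 sites in all.

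Both cal. res. values lay above both ctrl. values at 4 of 31 common family sites (12.9%), where the share over all common sites was 11.5%, and below at 6 (19.4%), where it was 20.9%. Both CORT values lay above both ctrl. values at 10 of 31 (32.3%), where the share was 26.6%, and below at 0, where it was 5.25%. The cal. res. shares were thus near the background. Ranking among the common sites alone brought the CORT count to 5 of 31 above (16.1%, with 19.1% over all common sites) and 3 below (9.68%, with 19.8%). Without ctrl. 1, cal. res. lay above at 68.8% of the family sites (57.5% over all common sites) and CORT at 81.2% (72.5%). Without ctrl. 2, cal. res. lay below at 69.2% (67.5%) and CORT at 30.8% (39.4%).

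**Figure D4:**
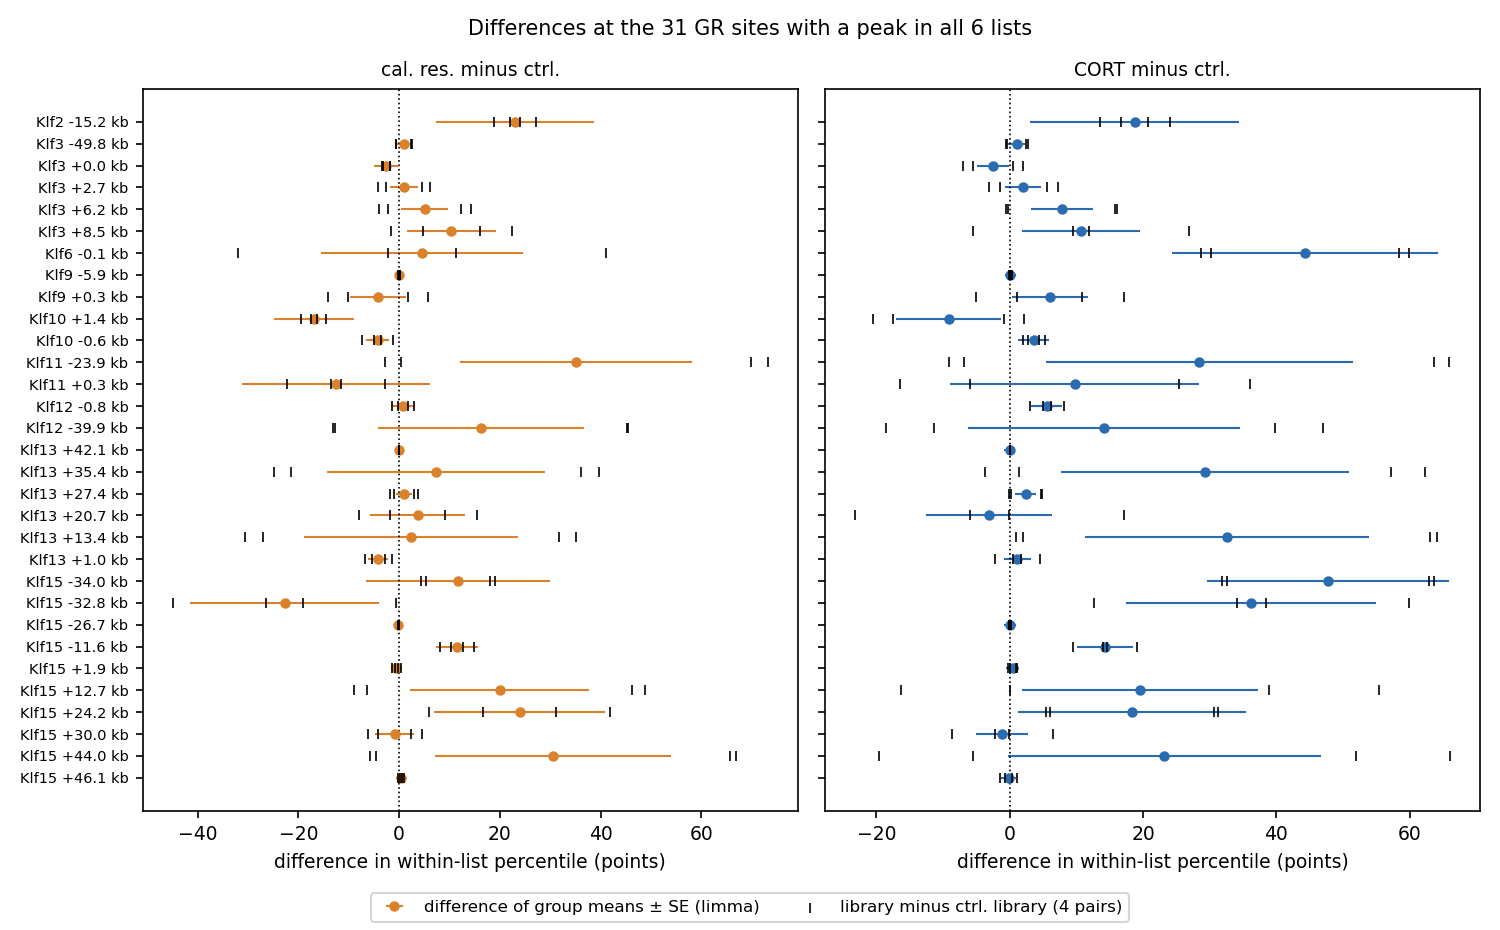
For the 31 family sites with a peak in all 6 lists, circles give the difference in mean percentile from ctrl. with the limma standard error, and black ticks the 4 differences between single libraries. The ticks fall into 2 pairs far apart at Klf11 -23.9 kb, Klf13 +35.4 kb and Klf15 +44.0 kb, where the 2 ctrl. libraries differed, and close together at Klf15 -11.6 kb.

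Gains were read from presence. Of the 87 family sites, 9 (10.3%) were held by cal. res. and not by ctrl., where the share over all sites was 11.5%. They lay at Klf4 -0.2 kb, Klf6 -19.9 kb, Klf10 -47.2 kb and -48.2 kb, Klf11 -24.7 kb, +31.5 kb and +35.3 kb, Klf13 +9.0 kb and Klf15 +8.6 kb. All 9 had a peak in ctrl. 1, at percentiles from 40.03 to 74.2, and none in ctrl. 2. No family site was held by cal. res. without a peak in a ctrl. list, where the share over all sites was 0.842%. CORT held 17 sites that ctrl. did not (19.5%, with 24.3% over all sites), of which 14 had a peak in ctrl. 1. Without ctrl. 2 the counts were 0 in cal. res. (0.955% over all sites) and 3 in CORT (4.63% over all sites). Of the 17, 8 were among the 9 held by cal. res., and Klf4 -0.2 kb was the exception.

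A further class, 3 sites, was held by CORT with no peak in either ctrl. list (3.45%, with 4.28% over all sites). Klf12 +10.3 kb had percentiles of 58.9 and 6.1 in CORT, Klf12 +1.1 kb 36.2 and 39.8, and Klf15 +39.2 kb 48.4 and 69.6. None of them had a peak in cal. res. Both Klf12 sites lie in introns of Klf12.

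FOXO1 overlapped many of these sites. It was found at 30 of the 87 family sites (34.5%), where the share over all sites was 13.9%, and at 27 of the 31 common ones (87.1%), where it was 50.7%. The common family sites were also wider (median 1861 bp against 1139 bp over all common sites). They ranked higher too, with a median percentile of 92.5 against 76.3 in cal. res. 1 and 88.7 against 71.5 in cal. res. 2. The parts of width and rank in these overlaps were not tested. The 4 common sites without FOXO1 were Klf10 +1.4 kb and Klf15 -34.0 kb, -32.8 kb and +24.2 kb. A FOXO1 region lay within 50 kb of 9 of the 10 genes, where 33.3% of protein-coding genes had one, and Klf4 was the exception. Of 37 FOXO1 regions in these windows, 36 (97.3%) overlapped a GR site, where 93.7% of all FOXO1 regions did, and 34 (91.9%) one held by cal. res., where 76.1% did. The region without a GR peak lay 46.0 kb downstream of the Klf11 start, at a percentile of 3.77 in the FOXO1 list. Since FOXO1 was mapped in cal. res. livers only, these overlaps cannot show whether FOXO1 binding differed between groups.

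Among the strongest FOXO1 regions were several at leading GR sites. Of 8053 FOXO1 regions, the one in Klf15 +1.9 kb, which is not the leading site, ranked 14th and that in the leading Klf15 -26.7 kb 18th. Those in Klf2 -15.2 kb, Klf9 -5.9 kb and Klf13 +42.1 kb ranked 82nd, 96th and 138th, and the best one in Klf15 +46.1 kb 286th. Klf2 -15.2 kb thus combined a FOXO1 region at a percentile of 99.0 with GR percentiles of 49.9 to 77.2. The percentile of the best FOXO1 region was 90.1 at Klf3, 63.6 at Klf11, 60.5 at Klf10, 57.4 at Klf12 and 52.7 at Klf6. At Klf3 and Klf12 it lay in another site than the leading one, and at Klf12 that site, Klf12 +2.7 kb, had a GR peak in a single list. The closest FOXO1 summit was within 100 bp of the GR summit at 25 of the 30 shared sites (83.3%), with a median of 40 bp, close to the 82.3% and 34 bp of all 7130 shared sites. The closest FOXO1 summit lay 23 bp from the GR summit at Klf13 +42.1 kb, 18 bp at Klf9 -5.9 kb and 3 bp at Klf15 +1.9 kb. At Klf9 -5.9 kb the strongest summit of the best FOXO1 region lay 861 bp from the GR summit.

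**Figure D5:**
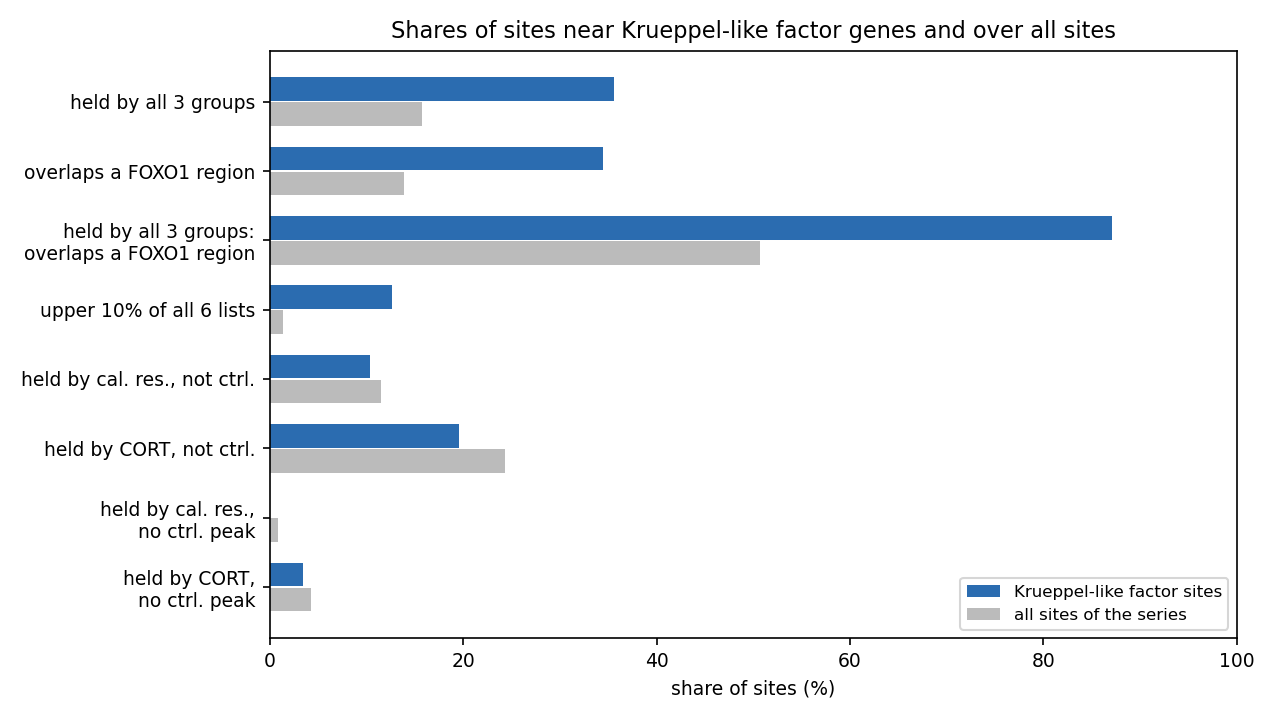
The bars give the share of sites, in %, with each property among the sites near Krueppel-like factor genes (blue) and over all sites of the series (grey). The blue bars are longer for sites held by all 3 groups, for FOXO1 overlap and for the upper 10% of all lists, and slightly shorter for sites held by cal. res. or CORT and not by ctrl.

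In the stretches printed above, Klf13 +42.1 kb and Klf9 -5.9 kb held none of the marked motifs. In 200 bp around the summit, searched on both strands, the palindromic GR element (GNACA, 3 free bases, TGTNC) stood at 5 of the 87 sites (5.75%), with 1.89% over all sites. These were Klf13 +42.1 kb and Klf15 -32.8 kb, +8.6 kb, +9.6 kb and +46.1 kb, so 4 of the 5 were at Klf15. The hexamer AGAACA, which overlaps the element, stood at 18 sites (20.7%, with 18.4% over all sites). The FOX motif stood at 26 sites (29.9%, with 20.5%) and at 11 of the 31 common ones (35.5%, with 21.6% over all common sites). Among the leading sites it was present at Klf2, Klf6 and Klf15. The KLF/Sp box GGGNGNGGC, which the members themselves can bind, stood at 12 sites (13.8%, with 10.3%), 8 of them among the 31 common ones (25.8%, with 16.3%). Of the leading sites 5 held it, those of Klf4, Klf6, Klf10 and Klf12, which lie over the gene starts, and that of Klf11. The STAT motif TTCNNNGAA stood at 11.5% of the sites (8.16% over all), the C/EBP motif TTNNGNAA at 37.9% (41.3%), the HNF4 motif CAAAGTNCA at 3.45% (3.73%) and the E-box CACGTG at 8.05% (4.73%). The windows had a mean GC content of 52.6%, with 50.5% over all sites. It was 57.6% at the common family sites, with 54.1% over all common sites, and 61.55% at the leading sites. The part of GC content in these motif shares was not tested.

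For comparison by counts, 16 relatives were taken by name, Klf1, Klf5, Klf7, Klf8, Klf14, Klf16, Klf17 and Sp1 to Sp9. Members and relatives were both chosen with earlier results of these data known, so contrasts between them carry no independent weight. The relatives had 73 gene-site pairs in all, with a median of 3.5 a gene against 8 for the members. Some pairs were shared by the neighbours Sp1 and Sp7 or Sp2 and Sp6. A site held by all 3 groups lay near 8 of these 16 genes and a FOXO1 region near 10. Of the Klf genes among them, only Klf16 and Klf17 had a site held by all 3 groups. Klf1, Klf5, Klf7, Klf8 and Klf14 had none, so what is reported for the members does not extend to all Klf genes. Klf8, Klf14 and Sp5 had no site. Klf16 had most, 12, of which 3 were held by all 3 groups and none overlapped FOXO1, whereas Klf13, with as many sites, had 6 and 6.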

How the data were processed

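GR ChIP-seq peak lists of 6 mouse livers were analysed, 2 for each of ctrl., cal. res. and CORT as their titles give it, together with a FOXO1 peak list from 2 merged cal. res. libraries. Per the methods, the authors aligned reads to mm10 with BWA, dropped duplicate and multi-mapping reads, called peaks with MACS2 in each GR library on its own, and removed blacklisted regions with bedtools. Whether an input library served as control is not stated. Each deposited list gives a fold enrichment, the ratio of the summit to its local background in that library, and −log10 of the p-value and q-value from the caller, as the authors deposited them. The largest q-value was close to 0.10 in the GR lists, and the FOXO1 list is stricter. The methods give 2 biological replicates, and p-values measure only the spread between these libraries.

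Rows with the same start and end were reduced to the strongest summit, and regions on chromosomes 1 to 19, X and Y that shared at least 1 bp were merged into sites. Genes came from the basic set of GENCODE M21. Chromosome lengths and sequences were read from GRCm38, the same build as mm10, and all peak ends lay within its lengths. A summit within 1 kb of an annotated start was called a promoter. Percentiles at sites with a peak in all 6 lists were compared with limma 3.58.1 in R 4.3.3 (trend on the mean, all 3 groups in the fit). Shares are set beside those over all sites, with no test, since sites are not replicates.

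All 10 genes are named, each with its leading site, its best FOXO1 region and any site held by cal. res. with no ctrl. peak. Sequences were read around the leading sites, and 5 of the 10 are printed. The members, the 16 relatives and the motifs were chosen with earlier results of these data known. Replicate numbers are shared between groups, and nothing in the labels pairs them. Alternatives covered the q threshold, equal list length, merging, distance, gene assignment, rank by p, scale, FOXO1 threshold and overlap, a replicate block, the name style and each library left out. Ranks among common sites and a crossed block were added after seeing the data. The fit was tested on simulated data. The scripts ran on matplotlib 3.10.9, pysam 0.24.0, SciPy 1.17.1, pandas 2.3.3, NumPy 2.4.6 and Python 3.11.15.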

Additional observations from a re-analysis of the deposited data

How the results depend on the processing

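Of 267 values recomputed under an alternative, 238 kept their direction and side of the threshold or stayed within the error of the value reported. For shares, that error was a 95% interval that counts sites or genes as independent, which they are not. The 238 may therefore overstate how stable the shares are. With 12456 regions from each library, the share of family sites held by all 3 groups was 56.5% (22.6% over all sites), the share overlapping FOXO1 63.0% (29.6%) and the share held by CORT and not ctrl. 8.70% (15.2%). With a group holding a site through either library, 57.5% were held by all 3 groups (39.1% over all sites) and 4.60% by cal. res. and not ctrl. (5.55%). The stronger 50% of FOXO1 regions overlapped 23.0% of the sites (7.21% of all). Gains in CORT were 3.45% within the name styles (4.62% of all). Leaving out 1 library at a time gave gains from 0% (without ctrl. 2) to 19.0% (without cal. res. 1) in cal. res., where all sites had 0.955% and 16.8%. In CORT they ran from 3.45% (without ctrl. 2) to 42.4% (without CORT 1), where all sites had 4.63% and 56.8%. Gains against ctrl. therefore depended on ctrl. 2, the shortest list. Limma called 0 to 6 family sites in cal. res. and 0 to 11 in CORT over the same omissions, the highest counts both without ctrl. 1, where ctrl. 2 stood alone and was assumed to vary like the other groups. With the name style as a term it called 7 in cal. res. On quantile-normalized log2 fold enrichment it called 0 family sites. The replicate block called 0 family sites in both comparisons, as did the block with the ctrl. numbers crossed. Deviations of libraries with the same number correlated at -0.047 (ctrl. and cal. res.), -0.12 (ctrl. and CORT) and 0.074 (cal. res. and CORT) over 8095 sites. These values show no clear pairing by number, but 2 libraries a group cannot exclude it. Without read counts, precision at single sites rests on 2 libraries a group.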
